A study of Mus musculus with 11 samples.

Results

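The genes described here encode the proteasome and the factors that assemble it, measured as RNA in whole mouse cochleae with and without Atf6. Members were all rows of the deposited tables whose symbol begins with Psm, a letter from a to g and a number, which gave 51 of 18667 genes. By letter they fell into 19 core genes (Psma and Psmb), 28 regulator genes (Psmc, Psmd, Psme and Psmf) and 4 assembly genes (Psmg). All 51 passed the filter on low values, which kept genes averaging 0.1 FPKM or more across the 11 libraries (FPKM counts fragments per kilobase of transcript, scaled to the mapped reads, so it is a level per length). The symbol rule also took in genes that build no part of the particle: Psmc3ip, a factor of meiotic recombination, and Psme3ip1, a protein that binds the activator encoded by Psme3.

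The libraries came from 5 Atf6+/+ and 6 Atf6-/- cochleae of 2-month-old mice, 1 library for each cochlea. Atf6-/- mice carried a premature stop in exon 4 of Atf6, an allele described as a protein null (protein was not measured here), and their controls were Atf6+/+ littermates. All were on the C57BL/6J background, whose Cdh23ahl allele, carried by both groups, leads to hearing loss at ages beyond that of these mice, and both sexes were used. The RNA was of the whole organ, so fewer cells of a type and less RNA in each cell cannot be told apart.

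The proteasome is the protease that degrades proteins marked with ubiquitin, among them the misfolded proteins drawn back out of the endoplasmic reticulum. Its 20S core is a barrel of alpha rings, which gate the entrance, and beta rings, which hold the proteolytic sites, and its 19S cap binds ubiquitin chains, removes them and unfolds the substrate with a ring of ATPases. ATF6 is a sensor of the endoplasmic reticulum that is cut under stress and then acts as a transcription factor, and the question set by the design is how the proteasome genes stood in cochleae that lack it.

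Atf6 RNA itself separated the libraries as labelled. It was 10.4, 9.99, 10.6, 8.39 and 8.25 FPKM in the Atf6+/+ libraries and lay between 3.83 and 4.59 FPKM, with a median of 4.22, in the Atf6-/- libraries. The groups did not overlap, and the log2 fold change was -1.13 ± 0.08 (SE, limma adjusted p = 5.17e-05).

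Proteasome RNA was slightly lower in Atf6-/- cochleae for most members, and no single member passed the adjusted test. The fold change, always Atf6-/- minus Atf6+/+ on the log2(FPKM + 0.1) scale, was below 0 for 43 of the 51 members, against 54.7% of the 16169 genes tested. Members were then called by a looser rule, an unadjusted limma p of at most 0.05 and a log2 fold change larger than 0.05 in size. By this rule 12 members were lower and 0 were higher, against 5.37% of all genes lower and 4.48% higher (9.85% in both directions). With an adjusted p under 0.05, 0 members were called, against 11 genes (0.068%) of all those tested. The median log2 fold change of the members was -0.10, beside -0.01 for all genes tested.

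The median of each class was below 0. In the core, 17 of 19 members were lower, 7 of them called at the unadjusted p, and the median log2 fold change was -0.13. In the regulators, 22 of 28 were lower, 4 of them called, with a median of -0.07. All 4 assembly genes were lower and 1 was called, with a median of -0.11. Leaving out 1 library at a time moved the medians between -0.16 and -0.10 in the core and between -0.09 and -0.05 in the regulators, the latter end without Atf6-/- replicate 6. The assembly median ranged from -0.16 to -0.07, and was at -0.07 without Atf6+/+ replicate 5 or without Atf6-/- replicate 5. The difference between classes was not tested.

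**Figure D1:**
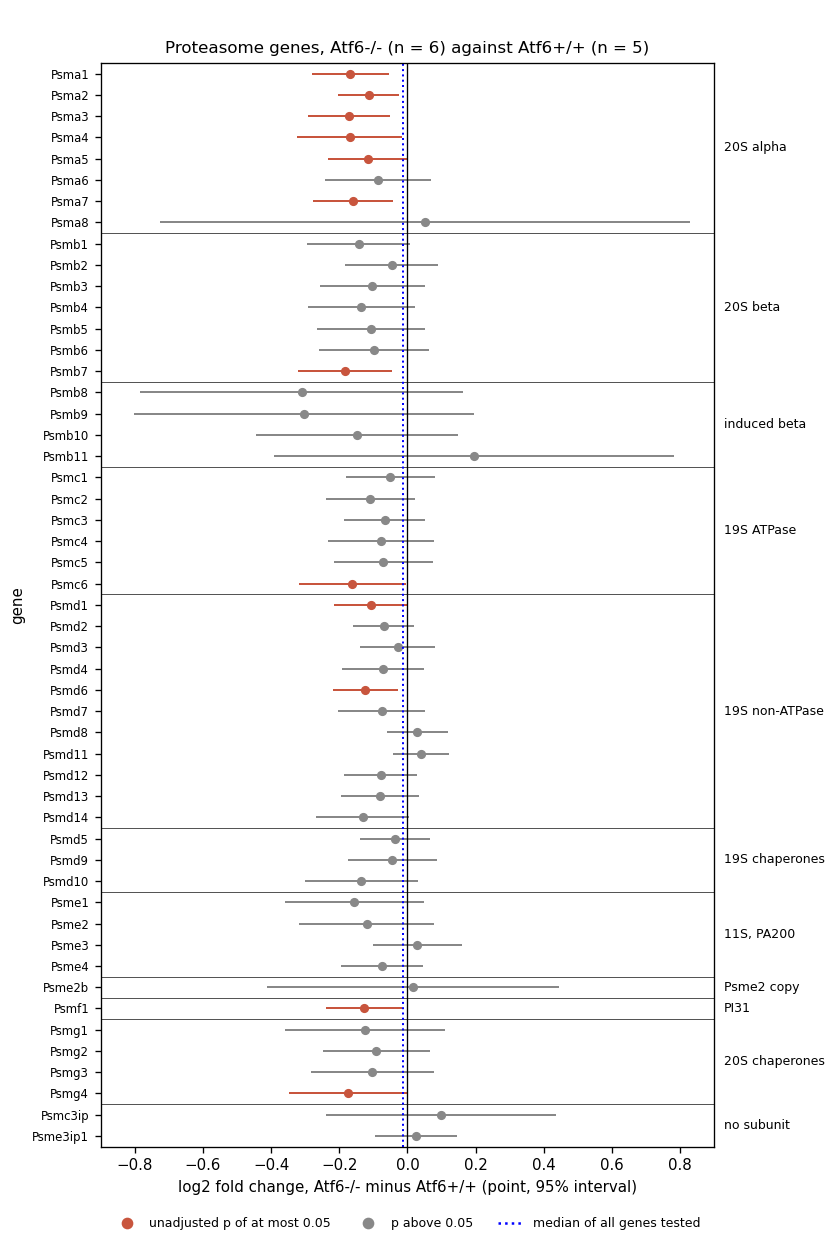
Log2 fold change (Atf6-/- minus Atf6+/+) of each of the 51 members, as a point with its 95% interval from limma, ordered by role. Red points are the 12 members at an unadjusted p of at most 0.05, and the dotted line is the median of all genes tested, -0.01; most points lie left of it.

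The count of 12 depended on single libraries and on the choice of scaling between libraries. It was 7 without Atf6-/- replicate 5, and from 8 to 15 when any other library was left out. Without Atf6-/- replicate 5, 43 members and 52.1% of all genes were lower, and of all genes 618 (3.82%) were called lower and 4.17% higher. When each library was rescaled to a common sum (TPM), 38 members were lower, 2 were called lower and 0 higher, with a median of -0.05, while the median of all genes was 0.04 and the split over all genes was 439 called lower (2.72%) and 1389 higher (8.59%), in place of 868 and 724. With TPM scaling 37.3% of all genes had a fold change below 0. Median-of-ratios scaling, which divides each library by the median ratio of its genes to their average, left the count at 12. There 43 members were lower and their median was -0.10, beside a median of -0.01 for all genes, of which 848 were called lower and 766 higher.

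The direction was not shared evenly among the libraries. Atf6-/- replicates 5 and 6 held the lowest value of 17 and 18 members, and Atf6+/+ replicate 4 held the highest value of 26. The summed level of all members was 2652, 2677, 2683, 2986 and 2801 FPKM in the Atf6+/+ libraries, and from 2421 to 2743 FPKM in the Atf6-/- libraries. The members took 0.521% to 0.583% of the FPKM in an Atf6+/+ library and 0.516% to 0.556% in an Atf6-/- library. By either measure the groups overlapped. The total behind each share included haemoglobin, which took 1.01% to 8.60% of the FPKM in an Atf6+/+ library and 0.597% to 1.99% in an Atf6-/- library. The lowest control share, 0.521%, was that of Atf6+/+ replicate 5, the library with 8.60% haemoglobin. Shares with haemoglobin left out were not computed.

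**Figure D2:**
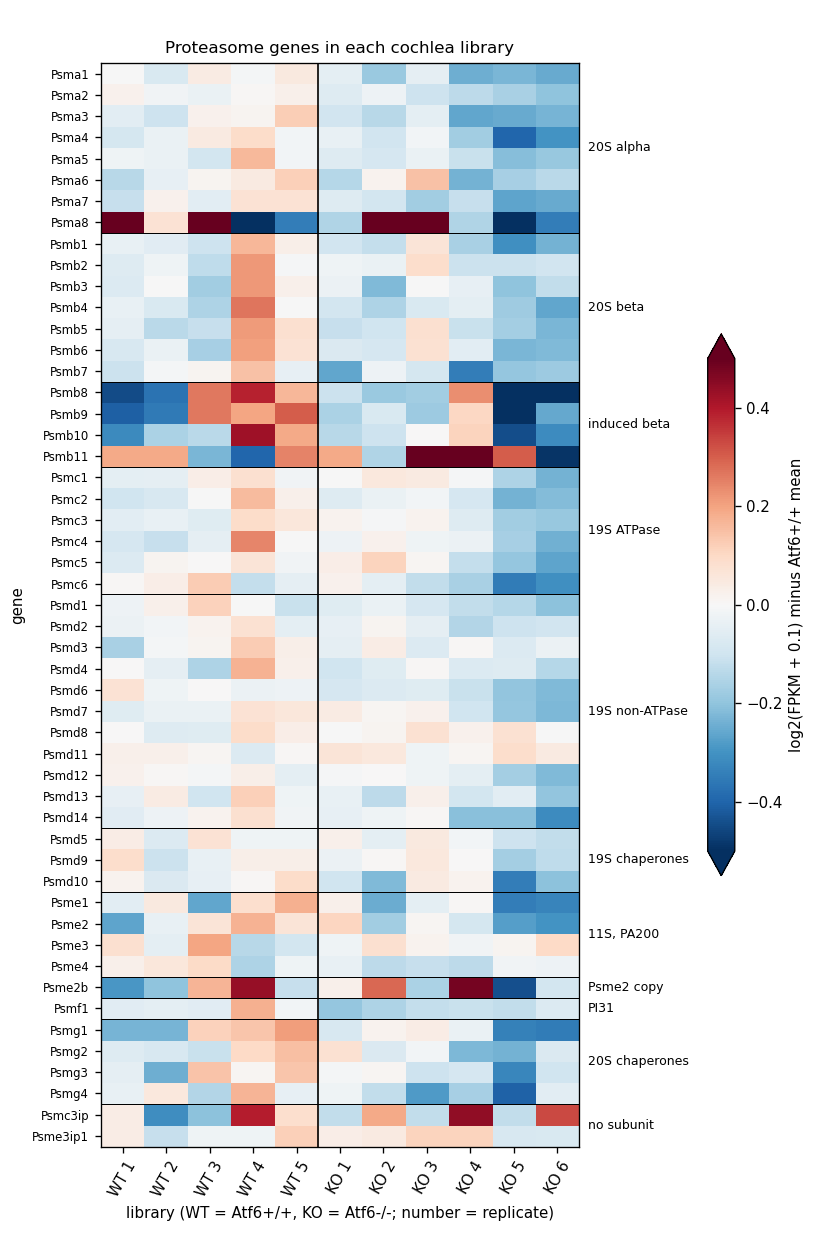
Level of each member (rows, by role) in each library (columns), as log2(FPKM + 0.1) minus the Atf6+/+ mean; blue is lower and red is higher, and colours end at 0.5 either way. The last pair of Atf6-/- columns is blue over most of the 20S and 19S rows, and the fourth Atf6+/+ column is red over the beta rows, where its summed level was 897 FPKM.

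Transcript length moved with the result. The members had a median transcript length of 1907 bases, beside 3317.5 for the genes tested that had a length in the reference, and 33 of the 51 lay among the shortest genes when all were ranked by length into 4 bins. Over all genes in the shortest bin the median log2 fold change was -0.06 and 8.76% were called lower, while in the longest bin the median was 0.03 and 2.18% were called lower. When the dependence of the log2 values on length and GC was taken out library by library, 39 members were lower and 6 were called lower, of which 4 were among the 12, 1 member (Psmd11) was called higher, and the median was -0.04 beside -0.02 for all genes. Over the 15790 genes in that fit 9025 (57.2%) were lower, 987 (6.25%) were called lower and 654 (4.14%) were called higher.

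Bone marrow markers moved with genotype as well. All 12 neutrophil markers were lower in Atf6-/-, 7 of them called at the unadjusted p, beside 5.37% of all genes called lower. Their summed level was 306 to 3637 FPKM in Atf6+/+ and 118 to 1358 FPKM in Atf6-/-. Elane and Mpo, which were not called, reached 0.16 and 0.06 when 1 library was left out. The calls of Ltf and Lcn2 were among those lost with robust variance and without the mean-variance trend. All 11 erythroid markers were lower, 7 called, with sums of 4841 to 46411 and 2875 to 9393 FPKM. Of the 10 B lineage markers 9 were lower, 3 called, with sums of 12.8 to 37.6 and 10.2 to 17.8 FPKM, and Vpreb1 was listed at 0 in at least 1 library. With a score of these markers as a covariate, 43 members were still lower, 7 of them called, and the median was -0.11, while 54.4% of all genes were lower, 3.33% were called lower and 2.03% higher. Of the 12 called without the score, 5 stayed called.

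Markers of the cochlea were present in both groups and mostly higher in Atf6-/-, a direction that turned for many of them with the bone marrow score. Hair cell markers summed to 43.0 to 138 FPKM in Atf6+/+ and 74.3 to 158 FPKM in Atf6-/-, with 8 of 9 higher and 2 called. Supporting cell markers were higher for 6 of 7 (1 called), stria vascularis markers for 7 of 7 (1 called) and fibrocyte markers for 3 of 3 (1 called). All 6 neuron markers were lower (1 called), as were 8 of 8 bone markers (0 called), 7 of 9 macrophage markers (0 called), 6 of 7 T and NK markers tested (3 called) and 5 of 5 markers of cycling cells (1 called). With the bone marrow score 9 of the 26 cochlear markers (hair cell, supporting cell, stria vascularis and fibrocyte) were higher, among them 3 of 9 hair cell markers, and of their 5 calls 1 was held, that of Fgfr3. The hair cell calls were Ocm and Slc26a5, and Slc26a5 was called in 5 of the 11 fits that leave out a library. With the score 4 of 6 neuron, 1 of 8 bone and 1 of 5 cycling cell markers were lower, and with TPM scaling 4 of 6 neuron markers were. The part of these cell types in the proteasome values was not tested.

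The 20S alpha genes held 6 of the 12 calls. Of 8 genes, 7 were lower and 6 were called at the unadjusted p, beside 5.37% of all genes called lower, with a median log2 fold change of -0.14. With TPM scaling 2 were called and the median was -0.08, and with the length and GC trend removed 2 were called and it was -0.05. These subunits form the outer rings of the core, whose N-terminal tails close its gate. Their summed level was 450, 457, 468, 485 and 489 FPKM in the Atf6+/+ libraries, and 399 to 459 FPKM in the Atf6-/- libraries, with a mean of 470 ± 17.0 (SD, n = 5) against 427 ± 25.4 (SD, n = 6). Atf6-/- replicate 3 alone reached into the control range, replicates 1 and 2 lay just below it, and replicates 4 to 6 were farther down.

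Psma1 was 68.8, 65.3, 70.8, 68.4 and 71.3 FPKM in the Atf6+/+ libraries, and from 57.8 to 66.7, median 59.7, in the Atf6-/- libraries. The log2 fold change of Psma1 was -0.17 ± 0.05 (SE), with a limma p of 0.00594, an adjusted p of 0.380 and an exact permutation p of 0.0152. In 4 of the 6 Atf6-/- libraries Psma1 lay below every control. The call was held whichever library was left out, and was lost, at a log2 fold change of -0.05, after removal of the length and GC trend.

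Psma3 was 58.0, 56.0, 61.1, 60.8 and 65.5 FPKM in Atf6+/+, and from 50.2 to 58.2, median 53.0, in Atf6-/-. Its log2 fold change was -0.17 ± 0.05 (limma p = 0.00785, adjusted p = 0.399, exact permutation p = 0.0195). It was the 1 member called under all 22 alternative settings, those that leave out a library included. Psma7 was 70.8, 77.9, 74.0, 80.6 and 80.8 FPKM in Atf6+/+, and from 63.9 to 73.4, median 69.4, in Atf6-/-. This was a log2 fold change of -0.16 ± 0.05 (limma p = 0.00969, adjusted p = 0.403, exact permutation p = 0.0152). For both genes 4 of 6 Atf6-/- libraries lay below every control. The call of Psma7 was lost with TPM scaling, at a log2 fold change of -0.10.

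Psma2 was the steadiest of the alpha genes among the controls, at 72.6, 70.7, 69.9, 71.9 and 72.7 FPKM, and lay between 62.3 and 70.4, median 66.0, in Atf6-/-. Its log2 fold change was -0.11 ± 0.04 (limma p = 0.0137, adjusted p = 0.415, exact permutation p = 0.00866). Atf6-/- replicate 2 alone reached into the control range. Its call was lost with TPM scaling (log2 fold change -0.06) and with the length and GC trend removed (-0.05).

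Psma4 and Psma5 were called on thinner margins. Psma4 was 55.7, 57.8, 61.0, 63.0 and 58.6 FPKM in Atf6+/+, and from 44.9 to 58.6, median 53.9, in Atf6-/-, a log2 fold change of -0.17 ± 0.07 (limma p = 0.0317, adjusted p = 0.475, exact permutation p = 0.0368). The call was lost without Atf6+/+ replicate 3 (log2 fold change -0.16), Atf6+/+ replicate 4 (-0.15), Atf6-/- replicate 5 (-0.12) or Atf6-/- replicate 6 (-0.14). It was also lost with the length and GC trend removed (-0.05), with TPM scaling (-0.11) and with the bone marrow score (-0.18). Psma5 was 46.3, 46.0, 44.1, 52.6 and 46.6 FPKM in Atf6+/+, and from 40.5 to 46.0, median 44.0, in Atf6-/-, a log2 fold change of -0.12 ± 0.05 (limma p = 0.0461, adjusted p = 0.505, exact permutation p = 0.0325). Without Atf6+/+ replicate 4, the highest library, the log2 fold change of Psma5 was -0.08 and its call was lost. The Psma5 call was also lost without Atf6+/+ replicates 1, 2 or 5 or Atf6-/- replicates 2, 4, 5 or 6, with log2 fold changes from -0.12 to -0.10. Other settings that lost it were removal of the length and GC trend (-0.03), TPM scaling (-0.06), the bone marrow score (-0.15) and, at an unmoved fold change, robust variance and no mean-variance trend, and it was held in 8 of the 22 alternatives. An exon of Psma4 overlaps one of AY074887 on the opposite strand and an exon of Psma5 overlaps the antisense gene 1700010K24Rik. In the reference annotation exons of 16 of the 51 members overlap those of another gene, 13 members on the opposite strand and 4 on the same strand. The libraries were stranded, but the strand setting of the counting is not given in the sources used here.

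The other alpha genes were not called. Psma6 was 85.6 ± 5.70 (SD, n = 5) FPKM in Atf6+/+ and 80.8 ± 8.17 (SD, n = 6) in Atf6-/-, and both the highest and the lowest of its values were in Atf6-/- libraries. Psma8, the alpha subunit of the testis, was near background, with at most 0.40 FPKM in any library.

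**Figure D3:**
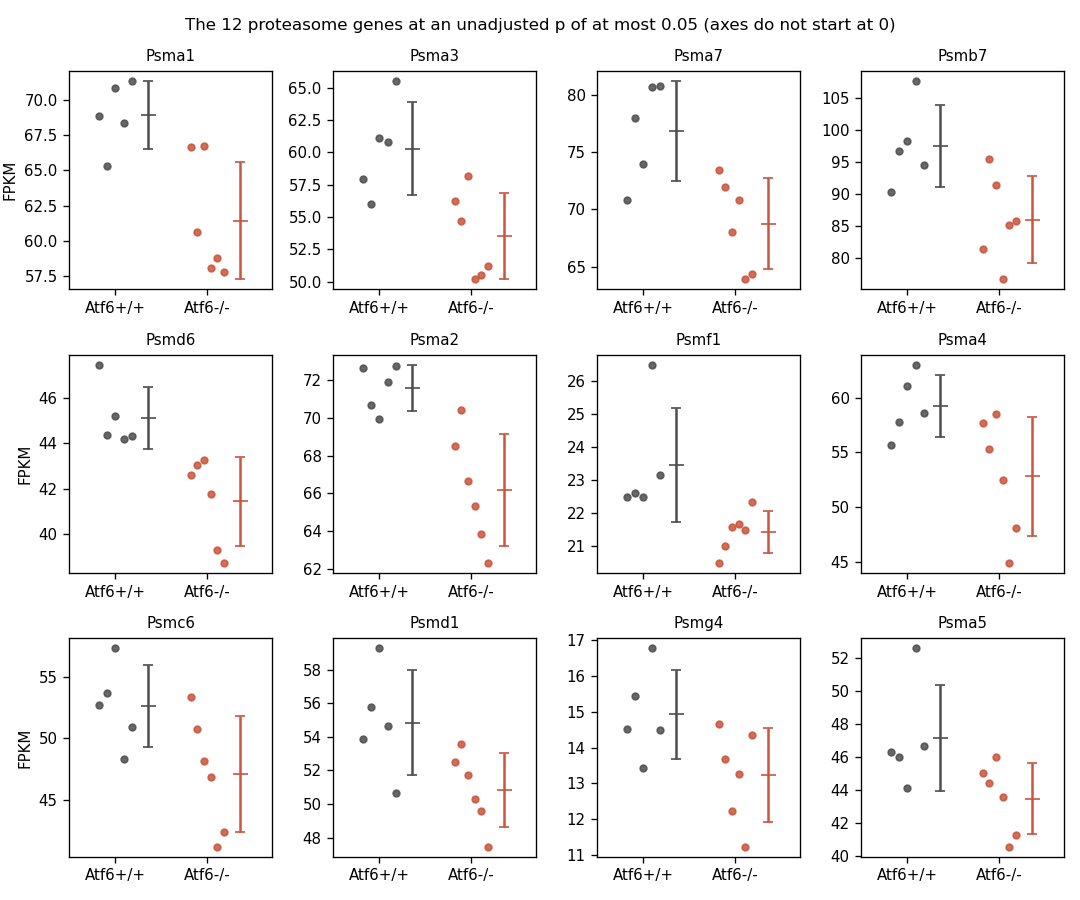
FPKM of the 12 members at an unadjusted p of at most 0.05, in order of p, with 1 point for each library and the mean ± SD beside the points (Atf6+/+, n = 5, grey; Atf6-/-, n = 6, red). Axes do not start at 0; the groups are apart for Psmd6 and Psmf1 and overlap for the other 10.

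All 7 constitutive 20S beta genes were lower, though Psmb2 was above 0 with TPM scaling and Psmb2 and Psmb6 with the length and GC trend removed, and Psmb7 was called. Beta subunits form the inner rings, and those encoded by Psmb5, Psmb6 and Psmb7 carry the chymotrypsin-like, caspase-like and trypsin-like sites. Psmb7 was 90.4, 96.7, 98.3, 108 and 94.6 FPKM in Atf6+/+, and from 76.7 to 95.6, median 85.5, in Atf6-/-. Its log2 fold change of -0.18 ± 0.06 was the farthest from 0 among the constitutive core genes (limma p = 0.0124, adjusted p = 0.415, exact permutation p = 0.0216). The highest pair of Atf6-/- libraries lay inside the control range. The Psmb7 call was lost with TPM scaling, with the bone marrow score and with the length and GC trend removed, at log2 fold changes of -0.13, -0.15 and -0.13, and an exon of Psmb7 overlaps one of Nek6 on the opposite strand.

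The other constitutive catalytic genes differed less. Psmb5 was 101, 94.6, 96.0, 121 and 110 FPKM in Atf6+/+, and from 88.7 to 110, median 96.2, in Atf6-/- (log2 fold change -0.11 ± 0.07, limma adjusted p = 0.607, exact permutation p = 0.182). Psmb6 was 101, 104, 94.8, 122 and 112 FPKM in Atf6+/+, and from 90.7 to 112, median 101, in Atf6-/- (log2 fold change -0.10 ± 0.07, limma adjusted p = 0.649, exact permutation p = 0.227). In both, Atf6+/+ replicate 4 was the highest library and the other controls lay inside the Atf6-/- range or at its edge, and without that library the log2 fold changes of Psmb5 and Psmb6 were -0.05 and -0.05. Psmb3, the most abundant core gene per length, was 127, 133, 118, 155 and 135 FPKM in Atf6+/+, and from 114 to 133, median 126, in Atf6-/-, a log2 fold change of -0.10 that was -0.05 without Atf6+/+ replicate 4. Psmb1, Psmb2 and Psmb4 had log2 fold changes of -0.14, -0.05 and -0.13, and none was called. The 95% intervals of the 6 beta genes that were not called reached from -0.29 at the lowest to 0.09 at the highest.

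The induced beta genes varied more among the controls than the constitutive beta genes, with coefficients of variation of 25.4%, 23.4% and 21.8% for Psmb8, Psmb9 and Psmb10 against 6.58% to 11.8%. Psmb8, Psmb9 and Psmb10 encode the catalytic subunits that replace those of Psmb5, Psmb6 and Psmb7 in the immunoproteasome, a form of immune cells and of cells treated with interferon. Psmb8 was 6.18, 6.54, 10.2, 11.1 and 9.50 FPKM in Atf6+/+, and from 4.30 to 9.97, median 7.47, in Atf6-/- (log2 fold change -0.31 ± 0.22, limma adjusted p = 0.627, exact permutation p = 0.242). Psmb9 was 4.65, 4.84, 7.48, 7.14 and 7.68 FPKM in Atf6+/+, and from 2.54 to 6.69, median 5.51, in Atf6-/- (log2 fold change -0.30 ± 0.23, limma adjusted p = 0.649, exact permutation p = 0.292). For both genes Atf6+/+ replicates 1 and 2 were low and replicates 3 to 5 high, and the Atf6-/- libraries spanned the low controls.

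Psmb10 was 15.2, 17.0, 17.3, 25.6 and 21.7 FPKM in Atf6+/+, and from 14.0 to 20.5, median 17.5, in Atf6-/- (log2 fold change -0.15 ± 0.13, limma adjusted p = 0.715, exact permutation p = 0.370). With the bone marrow score as a covariate the log2 fold change was -0.12 for Psmb8, -0.07 for Psmb9 and -0.10 for Psmb10. Single libraries moved these values too: without Atf6-/- replicate 5, the lowest library for all 3 genes, they were -0.18 for Psmb8, -0.11 for Psmb9 and -0.09 for Psmb10, and without Atf6+/+ replicate 4 that of Psmb10 was -0.04. Psmb11, the beta subunit of the thymus, was near background, at 0.14, 0.14, 0.08, 0.06 and 0.15 FPKM in Atf6+/+ and from 0.05 to 0.27, median 0.15, in Atf6-/-. Its log2 fold change was 0.20 and not called (-0.02 with the bone marrow score). Psmb8 and Psmb9 lie beside Tap1 and Tap2 in the class II region of the mouse MHC, and an exon of Psmb9 overlaps one of Tap1 on the opposite strand.

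Within a library the induced genes stood at a minor share of their constitutive partners, and the share did not separate the groups. The ratio of FPKM does not depend on the scaling between libraries. Psmb8 was 8.30 ± 1.79% (SD, n = 5) of Psmb5 in Atf6+/+ and 7.27 ± 1.96% (SD, n = 6) in Atf6-/-. Psmb9 was 5.97 ± 1.42% of Psmb6 in Atf6+/+ and 5.21 ± 1.30% in Atf6-/-. Psmb10 was 19.8 ± 3.32% of Psmb7 in Atf6+/+ and 20.3 ± 3.68% in Atf6-/-. In each of these pairs the groups overlapped over most of their range.

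**Figure D4:**
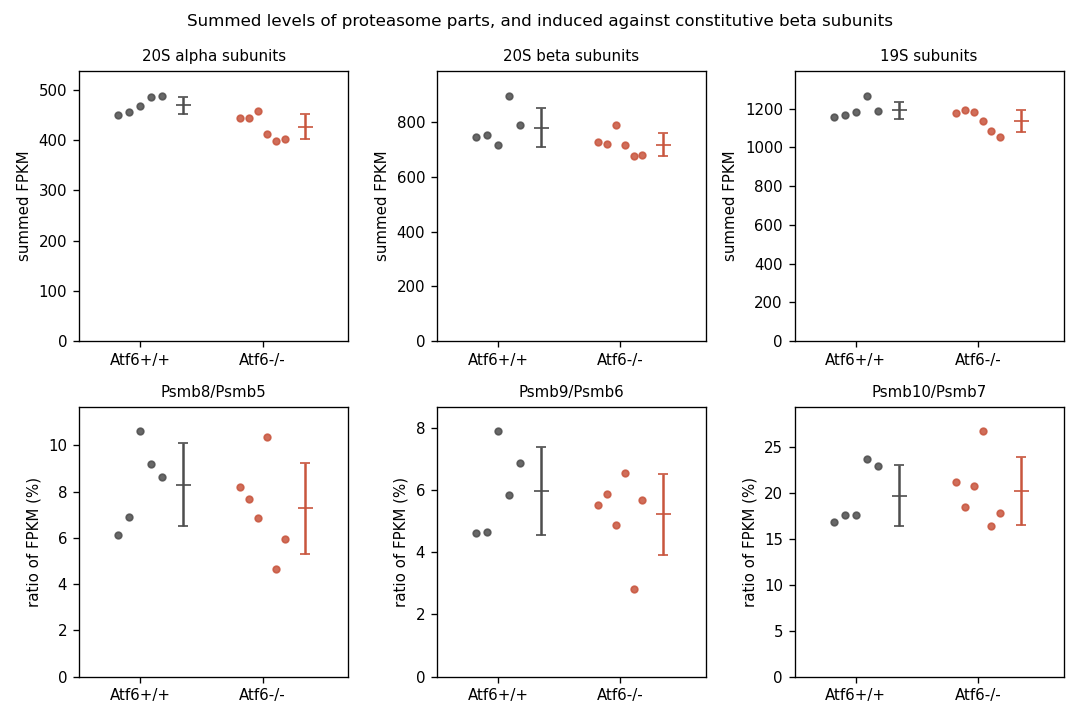
Top, summed FPKM of the 20S alpha, constitutive 20S beta and 19S subunit genes in each library; bottom, FPKM of each induced beta gene as a percent of its constitutive partner (points are libraries, bars are mean ± SD, axes start at 0). The alpha sums are 450 to 489 FPKM in Atf6+/+ and 399 to 459 in Atf6-/-, and the ratios overlap.

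In the 19S cap, 15 of 17 subunit genes were lower, 3 were called, beside 5.37% of all genes called lower, and the median log2 fold change was -0.07. With TPM scaling 13 were lower, 0 were called and the median was -0.02. With the length and GC trend removed 14 were lower, 2 were called lower, 1 (Psmd11) was called higher and the median was -0.04. All 6 ATPase genes, whose products form the ring that unfolds the substrate, were lower, though Psmc1 was at 0.01 with TPM scaling and with the length and GC trend removed. The ATPase gene Psmc6 is one that the study reports as changed by DESeq2, among genes that degrade proteins from the endoplasmic reticulum. Psmc6 was 52.7, 53.7, 57.3, 48.3 and 50.9 FPKM in Atf6+/+, and from 41.2 to 53.3, median 47.5, in Atf6-/-. Its log2 fold change was -0.16 ± 0.07 (limma p = 0.0408, adjusted p = 0.492), and the exact permutation p was 0.0606. Atf6-/- replicates 5 and 6 were the lowest, replicates 3 and 4 lay just below the lowest control, and replicates 1 and 2 lay among the controls. The Psmc6 call was lost without Atf6+/+ replicates 1, 2 or 3 or without Atf6-/- replicates 4, 5 or 6 (log2 fold change from -0.16 to -0.12). It was also lost with the length and GC trend removed (-0.06), with TPM scaling (-0.10), with the bone marrow score (-0.19) and without the mean-variance trend (-0.16).

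The other 5 ATPase genes were even among themselves and not called. Psmc1, the most abundant regulator gene per length, was 104, 104, 110, 113 and 106 FPKM in Atf6+/+, and from 91.0 to 111, median 107, in Atf6-/- (log2 fold change -0.05 ± 0.06, limma adjusted p = 0.786, exact permutation p = 0.435). The log2 fold changes of Psmc2, Psmc3, Psmc4 and Psmc5 were -0.11, -0.07, -0.08 and -0.07.

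Among the 11 non-ATPase genes of the cap, 9 were lower and Psmd6 and Psmd1 were called. Psmd6, a scaffold subunit of the lid, was 47.5, 44.4, 45.2, 44.2 and 44.3 FPKM in Atf6+/+, and from 38.7 to 43.3, median 42.2, in Atf6-/-. All 6 Atf6-/- libraries lay below all 5 controls, as they did for 2 of the 51 members (Psmd6 and Psmf1) and for 0.606% of all genes tested. No member lay above every control in all 6, as 0.643% of all genes did. The log2 fold change of Psmd6 was -0.12 ± 0.04 (limma p = 0.0132, adjusted p = 0.415, exact permutation p = 0.00433). Its call was held without any 1 library, and was lost with TPM scaling (-0.07) and with the length and GC trend removed (-0.04).

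Psmd1, which encodes the large scaffold at the base of the cap, was 53.9, 55.8, 59.3, 54.7 and 50.7 FPKM in Atf6+/+, and from 47.5 to 53.5, median 51.0, in Atf6-/- (log2 fold change -0.11 ± 0.05, limma p = 0.0411, adjusted p = 0.493, exact permutation p = 0.0303). In 3 of the 6 Atf6-/- libraries Psmd1 lay below every control. Its call was lost without Atf6+/+ replicates 1, 2, 3 or 4 or Atf6-/- replicates 4, 5 or 6 (log2 fold change from -0.11 to -0.08), with TPM scaling (-0.05), with the bone marrow score (-0.09) and without the mean-variance trend (-0.11). Its exons overlap those of Htr2b on the opposite strand and of the predicted gene Gm21972 on the same strand. Psmd14, the deubiquitinase of the lid, was just outside the rule, with 32.2 ± 1.19 (SD, n = 5) FPKM in Atf6+/+ and 29.5 ± 2.63 (SD, n = 6) in Atf6-/-, and a log2 fold change of -0.13.

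None of the other cap genes was called. Psmd4, a ubiquitin receptor, had a log2 fold change of -0.07, and Psmd2, Psmd3, Psmd7, Psmd12 and Psmd13 had values from -0.08 to -0.03. Psmd2 was called with the length and GC trend removed (-0.08) and Psmd13 with the bone marrow score (-0.14). Psmd8 and Psmd11 were higher by 0.03 and 0.04, and Psmd11 was called higher with the length and GC trend removed (0.10). The chaperone genes of the cap, Psmd5, Psmd9 and Psmd10, had log2 fold changes of -0.04, -0.04 and -0.14.

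Of the activators and inhibitors that bind the core in place of the cap, Psmf1 was called. It encodes PI31, known as an inhibitor of the core in vitro and as an adaptor that moves proteasomes along axons. Psmf1 was 22.5, 22.6, 22.5, 26.5 and 23.1 FPKM in Atf6+/+, and from 20.5 to 22.3, median 21.5, in Atf6-/-. The groups did not overlap, but the nearest libraries were 22.3 and 22.5 FPKM. The log2 fold change was -0.13 ± 0.05 (limma p = 0.0254, adjusted p = 0.462, exact permutation p = 0.00433). Without Atf6+/+ replicate 4, which stood above the other controls, it was -0.08 and still called. The Psmf1 call was lost without Atf6-/- replicate 1 (-0.11), with TPM scaling (-0.07) and with the bone marrow score (-0.09).

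The genes of the 11S activators, Psme1 and Psme2, whose products open the gate of the core in cells that present antigen, were not called. Psme1 was 31.2, 33.5, 27.1, 34.3 and 36.6 FPKM in Atf6+/+, and from 25.4 to 32.9, median 29.3, in Atf6-/- (log2 fold change -0.16 ± 0.09, limma adjusted p = 0.570, exact permutation p = 0.156). With the bone marrow score Psme1 was called, at a log2 fold change of -0.29. Psme2 was 35.1, 41.0, 44.0, 47.5 and 44.0 FPKM in Atf6+/+, and from 34.2 to 45.3, median 38.5, in Atf6-/- (log2 fold change -0.12 ± 0.09, limma adjusted p = 0.649, exact permutation p = 0.249). Both ranges overlapped widely.

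Psme3, the nuclear activator, was 47.2, 43.2, 51.2, 40.5 and 41.9 FPKM in Atf6+/+, and from 44.0 to 47.9, median 45.1, in Atf6-/- (log2 fold change 0.03 ± 0.06, limma adjusted p = 0.889, exact permutation p = 0.615). Psme4, which encodes the PA200 activator, was 12.8, 13.1, 13.5, 11.3 and 12.4 FPKM in Atf6+/+, and from 11.5 to 12.5, median 11.9, in Atf6-/- (log2 fold change -0.08 ± 0.05, limma adjusted p = 0.635, exact permutation p = 0.145). With the length and GC trend removed Psme4 was called, at a log2 fold change of -0.11. Psme2b, a near-identical copy of Psme2 with which it may share reads, was the least abundant regulator gene, at 0.51, 0.55, 0.74, 0.91 and 0.59 FPKM in Atf6+/+ and from 0.45 to 0.94, median 0.63, in Atf6-/-.

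The 4 assembly genes stood at 10.7 to 16.6 FPKM on average in either group, below every constitutive subunit gene of the 20S and 19S, and all had log2 fold changes below 0. Their products pair up as chaperones that build the alpha ring. Psmg4 was 14.5, 15.4, 13.4, 16.8 and 14.5 FPKM in Atf6+/+, and from 11.2 to 14.7, median 13.5, in Atf6-/- (log2 fold change -0.17 ± 0.08, limma p = 0.0447, adjusted p = 0.505, exact permutation p = 0.0606). In 3 of the 6 Atf6-/- libraries Psmg4 lay below every control. The Psmg4 call was lost in 8 of the 11 fits that leave out a library, those without Atf6+/+ replicates 1, 2, 4 or 5 or Atf6-/- replicates 2, 3, 4 or 5 (log2 fold change from -0.18 to -0.13). It was also lost with the length and GC trend removed (-0.06), with TPM scaling (-0.12), with the bone marrow score (-0.21) and without the mean-variance trend (-0.17).

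Psmg1 was 11.6, 11.6, 14.8, 15.1 and 15.8 FPKM in Atf6+/+, and from 10.7 to 14.0, median 13.1, in Atf6-/- (log2 fold change -0.12 ± 0.11, limma adjusted p = 0.699, exact permutation p = 0.310). Psmg2, the most abundant assembly gene, was 15.9, 15.7, 15.3, 17.8 and 18.4 FPKM in Atf6+/+, and from 14.1 to 17.5, median 15.8, in Atf6-/- (log2 fold change -0.09 ± 0.07, limma adjusted p = 0.664, exact permutation p = 0.266). Psmg3, the least abundant, was 11.1, 9.65, 12.7, 11.5 and 12.6 FPKM in Atf6+/+, and from 9.12 to 11.5, median 10.7, in Atf6-/- (log2 fold change -0.10 ± 0.08, limma adjusted p = 0.669, exact permutation p = 0.242). All of these ranges overlapped. The genes that are no part of the particle were not called either, with log2 fold changes of 0.10 for Psmc3ip and 0.02 for Psme3ip1.

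The promoters of the members were read for the motifs of the factors known to act on proteasome genes. NFE2L1 and NFE2L2 bind the antioxidant response element, whose core was searched as TGACNNNGC on both strands in 300 bases (250 before to 50 after each start) of the RefSeq promoters on GRCm38.p6. It was present in 6 of 47 promoters of 43 member genes, 12.8%, beside 12.4% of all 32851 promoters. Of the 12 called members 11 had a promoter in the table, and Psmc6 alone of them held the core. The windows below show this motif in capitals, 5′ to 3′ on the strand of the gene, because they belong to the catalytic, ATPase, cap and cap chaperone genes described above.
Psmb5 (chr14:54618009-54618067, minus strand): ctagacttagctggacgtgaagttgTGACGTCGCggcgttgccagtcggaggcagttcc
Psmb6 (chr11:70525323-70525356, plus strand): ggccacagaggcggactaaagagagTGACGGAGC
Psmc6 (chr14:45329574-45329630, plus strand): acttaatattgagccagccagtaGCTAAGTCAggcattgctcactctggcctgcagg
Psmd9 (chr5:123228134-123228189, plus strand): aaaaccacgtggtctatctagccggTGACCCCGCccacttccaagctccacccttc
Psmd12 (chr11:107479278-107479314, plus strand): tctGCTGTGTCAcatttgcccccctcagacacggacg

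In Psmc6 and Psmd12 the core lay on the opposite strand, 227 and 247 bases before the start. In Psmb5, Psmb6 and Psmd9 it lay on the strand of the gene, 47, 9 and 31 bases before the start. The sixth promoter with the core was that of Psme4. The full ER stress response element bound by ATF6 was in 0 of the 47 promoters and in 0.119% of all promoters. The CCAAT box alone was in 34.0% of the member promoters and 37.4% of all promoters. The core of the interferon-stimulated response element was in 5 of 47 (10.6%), those of Psmd4, Psmd9, Psmb3, Psmg4 and Psme1, beside 3.44% of all promoters.

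Genes of the proteasome that carry other names were listed as well. Of 10 such genes 9 were in the data, and of these 6 were lower and 2 were called lower, beside 54.7% and 5.37% of all genes. With TPM scaling 4 of the 9 were lower, beside 37.3% of all genes, and 1 of the 2 calls was held. Sem1, a small subunit of the lid, was 87.7, 90.2, 104, 110 and 111 FPKM in Atf6+/+, and from 70.9 to 93.0, median 84.0, in Atf6-/- (log2 fold change -0.28 ± 0.09, limma p = 0.00752, adjusted p = 0.397, exact permutation p = 0.0238). Pomp, the chaperone that joins the parts of the maturing core, was 116, 109, 121, 130 and 132 FPKM in Atf6+/+, and from 93.9 to 125, median 106, in Atf6-/- (log2 fold change -0.17 ± 0.07, limma adjusted p = 0.503, exact permutation p = 0.0649). The Pomp call was lost without Atf6+/+ replicates 3, 4 or 5 or Atf6-/- replicates 2, 4, 5 or 6 (log2 fold change from -0.17 to -0.13), with TPM scaling (-0.11), without the mean-variance trend (-0.17) and with the bone marrow score (-0.18). Uchl5 and Usp14, the deubiquitinases that dock on the cap, had log2 fold changes of -0.15 and -0.12 and were not called, and Adrm1, Ecpas, Ube3c, Txnl1 and Akirin2 lay between -0.05 and 0.08. Akirin2 was called higher with TPM scaling (0.14) and with the length and GC trend removed (0.16).

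Of 9 regulators of proteasome genes, 6 had fold changes above 0 and 3 below, against 54.7% of all genes below. By the looser rule 2 were called higher and 0 lower, against 4.48% and 5.37% of all genes, and the median was 0.02. With TPM scaling 9 were higher and 4 were called, where 8.59% of all genes were called higher. With the bone marrow score 5 were higher and 1 of the first 2 calls was held. With the length and GC trend removed 6 were higher and 1 of those calls was held. NFE2L1 is the factor that induces proteasome genes when proteasome activity falls, after it is freed of sugars by NGLY1 and cut by DDI2. Nfe2l1 was 124, 126, 128, 127 and 111 FPKM in Atf6+/+, and from 126 to 136, median 132, in Atf6-/- (log2 fold change 0.09 ± 0.04, limma adjusted p = 0.509, exact permutation p = 0.0108). Ddi2 was 14.0, 13.6, 12.5, 9.70 and 12.3 FPKM in Atf6+/+, and from 12.2 to 15.8, median 14.6, in Atf6-/- (log2 fold change 0.22 ± 0.10, limma adjusted p = 0.505, exact permutation p = 0.0823). Both lay just outside the rule, and their groups overlapped. Nfe2l1 was called higher with TPM scaling (0.15), with the bone marrow score (0.13) and without Atf6+/+ replicates 3 or 4 or Atf6-/- replicate 3 (0.10 to 0.11). Without Atf6+/+ replicate 5, the lowest library, the log2 fold change of Nfe2l1 was 0.06, and with the length and GC trend removed it was 0.04. Ddi2 was called higher with TPM scaling (0.27), with robust variance (0.22) and without Atf6+/+ replicates 1 or 2 or Atf6-/- replicates 3 or 4 (0.24 to 0.26). Without Atf6+/+ replicate 4, the lowest library for Ddi2, its value was 0.13, and it was 0.13 with the bone marrow score and 0.14 with the length and GC trend removed.

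Mafg, a small partner of these factors on DNA, was 30.02, 29.59, 30.65, 30.85 and 29.61 FPKM in Atf6+/+, and from 30.85 to 35.22, median 32.66, in Atf6-/- (log2 fold change 0.12 ± 0.04, limma p = 0.0108, adjusted p = 0.407, exact permutation p = 0.00649). The highest control and the lowest Atf6-/- library had the same value. The Mafg call was lost, at a log2 fold change of 0.06, with the length and GC trend removed. Nfe2l3 was 2.52, 1.84, 1.23, 1.48 and 1.74 FPKM in Atf6+/+, and from 1.90 to 2.68, median 2.40, in Atf6-/- (log2 fold change 0.41 ± 0.16, limma adjusted p = 0.469, exact permutation p = 0.0368). The Nfe2l3 call was lost without Atf6+/+ replicates 3 or 4 or Atf6-/- replicates 1, 5 or 6 (log2 fold change from 0.30 to 0.38), and with the bone marrow score (0.13). Nfe2l2, Ngly1 and Keap1 had log2 fold changes of -0.03, -0.04 and -0.05, and Mafk and Maff of 0.02 and 0.01. With the length and GC trend removed Keap1 was called lower, at -0.11.

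Genes before and after the proteasome in the pathway were counted beside all genes, of which 5.37% were called lower and 4.48% higher. Of 6 genes of ubiquitin and its activating enzymes, 3 were lower and 3 higher, and none was called. Of 10 genes of p97 and the ubiquitin shuttles, 1 was called. This was Ubqln2, a shuttle that carries ubiquitinated proteins to the cap. The study reports Ubqln2, like Psmc6, among its changed genes for the degradation of proteins from the endoplasmic reticulum. Ubqln2 was 52.9 ± 3.33 (SD, n = 5) FPKM in Atf6+/+ and 58.5 ± 2.46 (SD, n = 6) in Atf6-/-. Its log2 fold change was 0.15 ± 0.05 (limma p = 0.0111, adjusted p = 0.409, exact permutation p = 0.00866), and it was called under every alternative. Vcp, which encodes p97, had a log2 fold change of -0.03.

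In class I peptide loading, which uses the peptides that the proteasome makes, 7 of 10 genes were lower and 1 was called lower. Of all genes 54.7% were lower and 5.37% were called lower. Tap2, a subunit of the peptide transporter, was 18.9 ± 1.57 (SD, n = 5) FPKM in Atf6+/+ and 16.8 ± 1.12 (SD, n = 6) in Atf6-/- (log2 fold change -0.16 ± 0.07, limma adjusted p = 0.470, exact permutation p = 0.0368). The Tap2 call was lost without Atf6+/+ replicates 4 or 5 or Atf6-/- replicates 5 or 6 (log2 fold change from -0.15 to -0.13), with TPM scaling (-0.11) and with the bone marrow score (-0.17). Its neighbours Tap1, Psmb8 and Psmb9 had log2 fold changes of -0.18, -0.31 and -0.30 and were not called. Calr was called higher with TPM scaling (0.19) and Tapbp lower with the length and GC trend removed (-0.09).

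The class medians were below 0 under every alternative tried, and their size varied with scaling and with transcript length. The core median lay between -0.05, with the length and GC trend removed, and -0.16, without Atf6+/+ replicate 3. The regulator median lay between -0.02, with TPM scaling, and -0.09, with the bone marrow score. The assembly median lay between -0.04, with the length and GC trend removed, and -0.16, when 1 library was left out, and was -0.06 with TPM scaling.

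**Figure D5:**
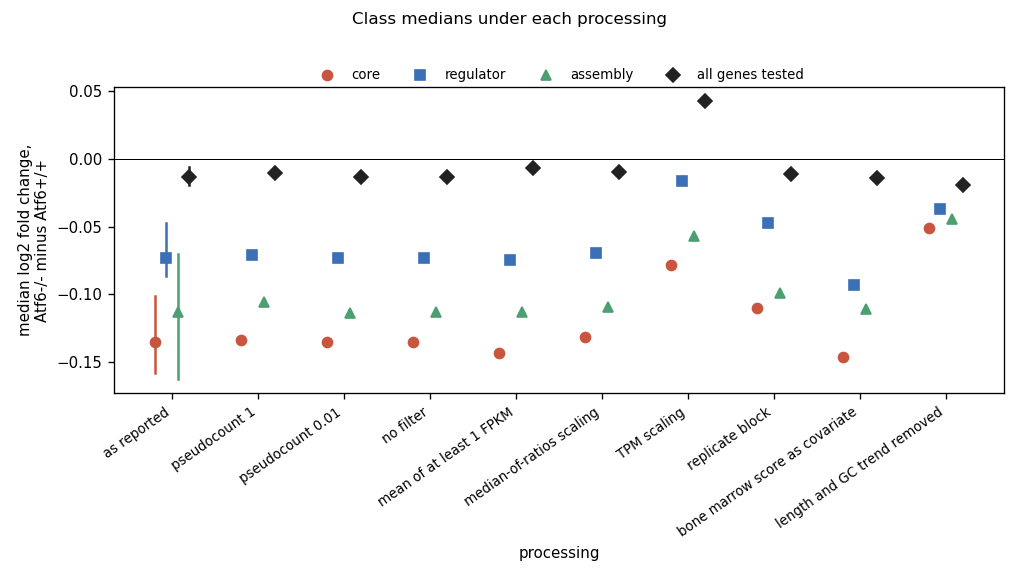
Median log2 fold change of the core, regulator and assembly classes and of all genes tested under each processing; the lines at the left span the fits that leave out 1 library. The 3 classes lie below the all-gene median throughout, closest to it with the length and GC trend removed, where the core is at -0.05 and all genes are at -0.02.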

How the data were processed

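RNA of 11 whole cochleae was sequenced as stranded mRNA libraries with paired-end reads. The authors aligned reads to GRCm39 and deposited FPKM values from RSEM. The submitters' processing notes name HISAT2 2.0.4, RSEM 1.2.12 and DESeq2 1.4.5, the last for the study's own tests. The methods of the study give a different version of RSEM. The study states a depth of 30000000 reads per sample. Only FPKM values were analysed, so the depth each library reached and the counting error per value are unknown. The libraries summed to 462005 to 537926 FPKM.

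Values were analysed as log2(FPKM + 0.1). The 16169 genes averaging 0.1 FPKM or more were fitted in limma 3.58.1 (R 4.3.3) on genotype, with its variance trend, and two-sided p-values were adjusted over them by Benjamini-Hochberg. The exact two-sided permutation test of a single gene used all 462 ways to assign genotypes (smallest p 0.00216). On simulated data the fit recovered 81% of 200 genes given a log2 change of 1, with 2.41% of calls false. That change is larger than the fold change of any member, which lay between -0.31 and 0.20. Recovery of changes as small as these was not simulated. Lengths came from GENCODE M21 transcripts, matched for 51 of 51 members.

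Every member was reported or counted. Described by library were members called at the unadjusted p, Psmb5 to Psmb10, Psmc6, Psme1 to Psme4, Psmf1, Psmg1 to Psmg4 and the most and least abundant of each class. Members and lists were chosen with earlier results of these data known. Libraries are single cochleae, and nothing says which came from the same mouse, so p-values measure the spread between these libraries. Replicate numbers were checked for pairing: deviations of same-numbered libraries correlated from -0.21 to 0.119, so they were not used to pair. Alternatives were pseudocounts of 1 and 0.01, other filters, TPM and median-of-ratios scaling, other variance models, a replicate block, a bone marrow score, removal of the length and GC trend (mgcv 1.9.3), and leaving out each library.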

Additional observations from a re-analysis of the deposited data

Results flagged for a closer look

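Within a genotype, 6 of 94 groups of values had a library far from the others by Dixon's criterion, where chance gives about 1 in 20, or 4.7. Psmf1 was 26.49 FPKM in Atf6+/+ replicate 4, with the next control at 23.15. Psmb9 was 2.54 FPKM in Atf6-/- replicate 5, with the next at 5.18, and Psmg3 was 9.12 FPKM in the same library, with the next at 10.64. The median level of the assembly genes was also apart in that library, at -0.3307 on the log2 scale relative to the Atf6+/+ mean, with the next at -0.124. Nfe2l1 was 111.48 FPKM in Atf6+/+ replicate 5, with the next control at 124.17, and Maff was 3.16 FPKM in that library, with the next at 2.59.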

How the results depend on the processing

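Counting error per value is unknown, the groups are small, and 0 members passed the adjusted test. Of the 12 members lower at the unadjusted p, all 12 stayed called with pseudocounts of 1 and 0.01, with either filter and with median-of-ratios scaling, 11 with robust variance and 8 without the mean-variance trend. The count of members lower was 2 with TPM scaling, 5 with the replicate block, 7 with the bone marrow score, 6 with the length and GC trend removed, and from 7 to 15 when 1 library was left out; the count higher was 1 with the length and GC trend removed. For all genes, the count at an adjusted p under 0.05 was 4 with the replicate block and 6 with the bone marrow score. The count lower at the unadjusted p was 439 with TPM scaling, 660 with the replicate block and 538 with the bone marrow score, and the count higher was 1389, 422 and 329 with TPM scaling, the replicate block and the bone marrow score. The cause of these shifts was not tested. The block left out Atf6-/- replicate 6, and with it the members' median was -0.08. Calls lost with the block were those of Psma2, Psma4, Psma5, Psma7, Psmc6, Psmd1, Psmd6, Sem1, Pomp, Mafg and Tap2, and of the markers Blnk, Cd3g, Cd4, Coch and Pvalb, which left 2 calls among the 20S alpha genes and 0 among the 19S subunit genes. Of the 39 members not called, 34 changed sign or moved by over 1.5 times in at least 1 fit that left out a library, and 15 of these were nearest to 0, or past it, without Atf6+/+ replicate 4.

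Among the members and the regulator genes, signs turned for log2 fold changes that were not called, the largest of them 0.196 for Psmb11. With TPM scaling Psmb2 was at 0.0109, Psmc1 at 0.0071, Psmd9 at 0.0123, Psmd5 at 0.0207, Psmd3 at 0.0289, Nfe2l2 at 0.0243, Ngly1 at 0.0209 and Keap1 at 0.0082. With the length and GC trend removed Psmb2 was at 0.0674, Psmc1 at 0.0074, Psmb6 at 0.0069, Psma6 at 0.0306, Ngly1 at 0.0019 and Mafk at -0.0095. With the bone marrow score Psmb11 was at -0.0154, Psmd3 at 0.0131 and Maff at -0.145, and with the replicate block Mafk was at -0.0134. Leaving out 1 library at a time gave -0.0759 to 0.125 for Psme2b, -0.0047 to 0.0542 for Psme3ip1, -0.0778 to 0.0085 for Psmb2, -0.180 to 0.216 for Psma8, -0.0055 to 0.0784 for Psme3, -0.0682 to 0.0040 for Psmd3, -0.0590 to 0.0147 for Nfe2l2, -0.0427 to 0.0803 for Mafk and -0.0451 to 0.0717 for Maff. Of the other genes named, Adrm1 was at 0.0397, Vcp at 0.0261 and Txnl1 at 0.0035 with TPM scaling, Adrm1 at 0.0271 and Akirin2 at -0.0053 with the bone marrow score, and Ecpas, near 0, at -0.0409 with the length and GC trend removed and -0.0046 with the block. Leaving out 1 library gave -0.0435 to 0.0151 for Adrm1 and -0.0417 to 0.0281 for Ecpas.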
